A study of Mus musculus with 18 samples.

Results

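The collagen chain genes of the embryonic mouse heart were described over 5 stages of development. They were taken as every gene whose symbol is Col, a number, the letter a and a number, which gave 44 of the 49315 genes in the count tables. RNA had been sequenced from dissected hearts of wild-type C57BL/6 embryos, with males and females pooled, in 18 libraries, where E is the number of days after conception: E9.5 (n = 3), E10.5 (n = 4), E12.5 (n = 4), E14.5 (n = 3) and E16.5 (n = 4). No group carried a mutation, transgene or treatment, so each stage is set against an earlier stage of the same strain. The series as a whole concerns proteins of the developing heart, the mevalonate pathway and the proliferation of cardiomyocytes, and it states no separate aim for the collagens.

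Collagens are secreted as trimers of alpha chains, each chain being the product of its own gene, and the trimers assemble outside the cell into fibrils, sheets or filaments that carry load. Fibroblasts and the cells of the endocardial cushions and valves are the main makers of fibrillar collagen in the heart, whereas endothelial cells and cardiomyocytes rest on basement membranes built on type IV collagen. The 44 genes were placed in 4 classes. The 11 fibrillar genes were Col1a1, Col1a2, Col2a1, Col3a1, Col5a1, Col5a2, Col5a3, Col11a1, Col11a2, Col24a1 and Col27a1, whose products form fibrils. The 8 basement membrane genes were Col4a1 to Col4a6, which encode the type IV network chains, and Col15a1 and Col18a1, whose products are proteoglycans of basement membrane zones. The 9 FACIT genes, which encode collagens that sit on the surface of fibrils, were Col9a1, Col9a2, Col9a3, Col12a1, Col14a1, Col16a1, Col19a1, Col20a1 and Col22a1. The other 16 were the type VI genes Col6a1 to Col6a6, which encode chains of beaded filaments, Col7a1, Col8a1, Col8a2, Col10a1, the transmembrane collagens Col13a1, Col17a1, Col23a1 and Col25a1, and Col26a1 and Col28a1.

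Several members lie beside each other in the genome, and stretches at their starts are shown because these neighbours or partners are compared below. In GENCODE M21 on GRCm38, Col4a1 (chr8:11198423-11312826, minus strand) and Col4a2 (chr8:11312805-11449287, plus strand) start 21 bp apart and share 22 bp. Col4a3 and Col4a4 start 72 bp apart on chromosome 1 and Col4a5 and Col4a6 start 1309 bp apart on the X chromosome, again on opposite strands. Col3a1 and Col5a2 are neighbours on chromosome 1, Col6a1 and Col6a2 on chromosome 10, and Col6a4, Col6a5 and Col6a6 on chromosome 9, with no other protein-coding gene between the members of each set. The sequences below come from RefSeq promoter windows on GRCm38.p6 and are written 5′ to 3′ on the strand given; that of Col1a2 and that of Col3a1 precede the RefSeq start and lie outside the GENCODE exons of the gene. Capitals mark matches to the GC box GGGCGG or the TATA box TATAAA, searched on both strands along with the CCAAT box CCAAT.
Col4a1 and Col4a2 (chr8:11312805-11312826, + strand): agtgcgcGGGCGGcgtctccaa
Col4a3 and Col4a4 (chr1:82586850-82586920, - strand): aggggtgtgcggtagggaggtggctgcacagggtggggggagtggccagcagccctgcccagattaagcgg
Col1a2 (chr6:4505370-4505492, + strand): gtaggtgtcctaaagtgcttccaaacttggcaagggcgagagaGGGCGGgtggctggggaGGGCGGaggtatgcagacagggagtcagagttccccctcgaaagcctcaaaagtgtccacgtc
Col3a1 (chr1:45311288-45311537, + strand): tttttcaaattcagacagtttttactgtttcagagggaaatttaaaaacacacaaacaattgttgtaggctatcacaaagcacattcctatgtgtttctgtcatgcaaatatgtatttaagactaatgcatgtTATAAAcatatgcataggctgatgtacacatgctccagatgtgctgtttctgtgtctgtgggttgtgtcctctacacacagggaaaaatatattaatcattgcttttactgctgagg
RefSeq windows of 300 bases, 250 before and 50 after a start, were found for 35 of the 44 members, 38 windows in all. GGGCGG stood in 23 of these 38 windows (60.5%) and in 35.7% of all 32851 windows, TATAAA in 5 (13.2%) against 13.6% of all, and CCAAT in 13 (34.2%) against 37.4% of all. Of the shown stretches, that shared by Col4a1 and Col4a2 held 1 GC box, that of Col1a2 held 2, that of Col3a1 held 1 TATA box and none of the 3 motifs was found between Col4a3 and Col4a4. Outside the shown stretches, the full windows of Col1a2, Col4a1 and Col4a2 also held CCAAT. The Col1a2 stretch lies within the gene as GENCODE places it, which starts at chr6:4504814.

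The 18 libraries held between 30744015 and 45646538 counts each. Levels are given as CPM, counts scaled to library size, in replicate order within a stage, and a gene without counts could still have had up to 0.0657 to 0.0976 CPM, depending on the library, for counting error only. The summed level of 8 cardiomyocyte markers was 24025 to 29006 CPM at E16.5 and 18744 to 21961 CPM at E9.5, with none at 0. At E16.5 against E9.5, 4 of these 8 were higher and 2 lower at an edgeR adjusted p under 0.05. A set of 5 libraries stood apart from the other 13: E9.5 replicates 2 and 3, E10.5 replicates 1 and 2 and E12.5 replicate 4 had a sum of 0.582 to 2.75 CPM of 8 activated macrophage transcripts such as Chil3 and Mmp12, and the other 13 libraries had 341 to 689 CPM. The labels do not mention this split; values within the 13 libraries, which keep only 1 library of E9.5, or within the 5 libraries are therefore given beside fold changes. Comparisons with E9.5 within the 13 libraries thus rest on 1 library of that stage, with the spread taken from the other stages, and their calls assume that it varies like those. Nothing in the labels states that replicates of one stage were taken from different litters, and the p-values therefore reflect only how far these libraries scatter, part of which may be technical. In whole hearts, fewer cells of a type and less RNA per cell cannot be told apart. In the comparison of E16.5 with E9.5, 32.1% of all genes tested were higher and 32.8% lower, which is the background for these marker counts. The summed level of 8 fibroblast markers was 2153 to 2588 CPM at E16.5 and 825 to 933 CPM at E9.5, with 7 of 8 higher. Most of this sum at E9.5 was Vim, with 1158 to 1274 CPM at E16.5 and 747 to 841 CPM at E9.5. Postn had 572 to 820 CPM at E16.5 and 4.88 to 17.6 CPM at E9.5, and Pdgfra overlapped between the stages. The summed level of 6 epicardial markers was 263 to 360 CPM at E16.5 and 71.3 to 135 CPM at E9.5, with 4 of 6 higher. The sum of 6 endothelial markers was 894 to 915 CPM at E16.5 and 658 to 776 CPM at E9.5, with 4 of 6 higher and 2 lower. That of 6 smooth muscle markers was 1183 to 1435 CPM at E16.5 and 3645 to 4462 CPM at E9.5, with 2 higher and 3 lower. Most of this last sum at E9.5 was Acta2, with 826 to 1096 CPM at E16.5 and 2980 to 3731 CPM at E9.5. Tagln also fell, with 34.4 to 47.4 CPM at E16.5 and 289 to 360 CPM at E9.5. Cnn1 fell as well, with 126 to 146 CPM at E16.5 and 290 to 329 CPM at E9.5. Myh11 overlapped between the stages, whereas Rgs5 and Pdgfrb rose. Rgs5 had 97.7 to 109 CPM at E16.5 and 13.7 to 19.5 CPM at E9.5. Pdgfrb had 55.98 to 70.04 CPM at E16.5 and 11.99 to 15.1 CPM at E9.5. Whether the smooth muscle content of the hearts changed was not tested. Single libraries held transcripts of other organs: E16.5 replicate 4 had 4.299 CPM of the lung gene Sftpc, against at most 0.0309 CPM in the other E16.5 libraries, and E9.5 replicate 2 had 45.3 CPM of the liver gene Afp, against 0.211 and 0.432 CPM in the other E9.5 libraries. The epithelial gene Krt5 had 4.62 CPM in E9.5 replicate 1 and 4.92 and 5.61 CPM in E12.5 replicates 2 and 3. Krt5 also had 3.89 and 5.44 CPM in E16.5 replicates 3 and 4, and at most 0.266 CPM in every other library. The part of these markers in the collagen results was not tested.

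Collagen transcripts took up a growing share of the libraries. Counts of the 44 genes made up 0.320% ± 0.0389, 0.375% ± 0.0254, 0.509% ± 0.0556, 0.630% ± 0.0440 and 0.745% ± 0.0767 of all counts (SD) from E9.5 through E16.5 in stage order. The stage with the highest mean level was E16.5 for 20 of the 44 members, E14.5 for 10, E12.5 for 7, E10.5 for 2 and E9.5 for 5. Without the members that had too few counts to test, it was E16.5 for 18 and E14.5 for 9, with the other stages unchanged. Peak stages were not counted over all genes, so these numbers only describe the members. Of the 44, 41 had enough counts to be tested with edgeR, and a member whose level was high at a single stage could pass that filter through that stage alone. Col6a5 passed it only through its E16.5 libraries, and Col28a1 only through its E14.5 and E16.5 libraries. These genes stay in the counts of called members below. Col19a1 with 46 counts in all 18 libraries, Col6a4 with 42 and Col10a1 with 23 were not tested.

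At E16.5 against E9.5, 26 of the 41 tested members were higher and 7 were lower at an edgeR adjusted p under 0.05, and 8 did not pass. Among all 18885 genes tested in that comparison, 64.9% passed, 32.1% higher and 32.8% lower. The median log2 fold change was 1.02 over the tested members and -0.01 over all genes tested. The counts were 28 higher and 7 lower without E16.5 replicate 4, the library with Sftpc, and 26 higher and 7 lower without E9.5 replicate 2, the library with Afp. Between neighbouring stages, 21 members were higher and 5 lower at E10.5 against E9.5, where 18.2% of all genes passed (10.6% higher, 7.62% lower). At E12.5 against E10.5, 24 were higher and 3 lower, where 38% of all genes passed (20% higher, 18.1% lower). Fewer members moved at E14.5 against E12.5, with 10 higher and 6 lower, where 14.8% of all genes passed (6.29% higher, 8.56% lower). With scaling by library totals alone, this last split was 11 higher and 4 lower, where 2721 of all genes tested passed, against 2803 with the main scaling. At E16.5 against E14.5, 13 were higher and 13 lower, where 18.9% of all genes passed (10.1% higher, 8.74% lower). With scaling by library totals alone, which moved the median of all genes in that comparison to -0.15, the split was 6 higher and 14 lower. In that setting 4998 of all genes tested passed, against 3562 with the main scaling. The median log2 fold changes of the members over the 4 steps were 0.69, 0.72, 0.20 and -0.11, against 0.00, 0.01, 0.00 and -0.02 for all genes tested. Col28a1 had no count at E9.5, and with it left out the first of these medians was 0.61. The counts at E10.5 against E9.5 were smaller in some settings: within the 13 libraries, which hold 2 libraries of E10.5 and 1 of E9.5, 13 members were higher and 1 was lower, and 3 were lower without E9.5 replicate 2 or 3 or without any of the 4 E10.5 libraries. The 6 lower at E14.5 against E12.5 became 3 without E12.5 replicate 1, E14.5 replicate 2 or E14.5 replicate 3, and the 13 higher at E16.5 against E14.5 became 8 without E14.5 replicate 1 or replicate 3. These comparisons share libraries: each neighbouring pair shares a stage with the next, and E16.5 against E9.5 uses the libraries of the first and the last pair.

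**Figure D1:**
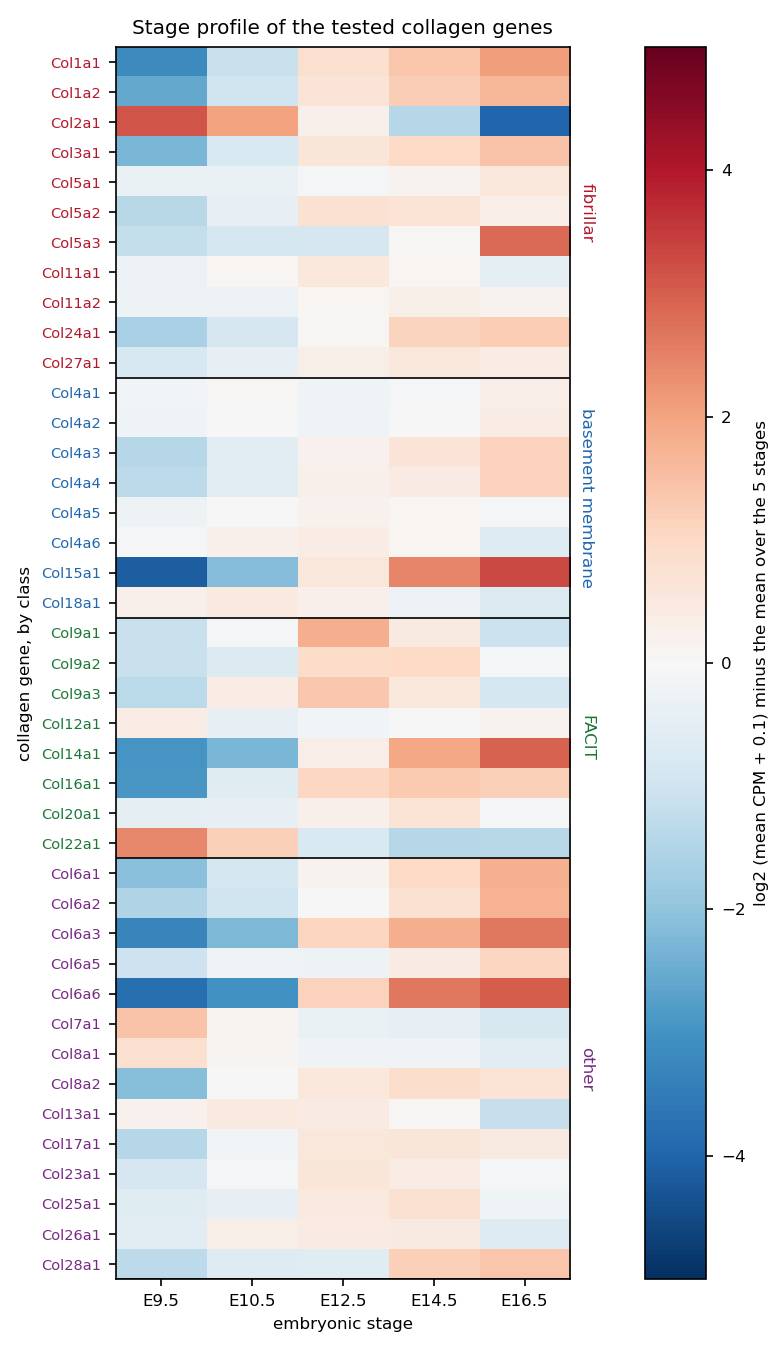
Heat map of the 41 tested collagen genes (rows, grouped by class) over the 5 stages (columns); colour gives log2 (mean CPM + 0.1) at a stage minus the gene's mean over the stages, red above and blue below. Col1a1, Col15a1, Col14a1 and Col6a3 are red at E16.5 and blue at E9.5, Col2a1 and Col22a1 run the other way, and Col9a1 and Col9a3 are reddest at E12.5.

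Among the fibrillar genes, 8 of 11 were higher at E16.5 than at E9.5, 1 was lower and 2 did not pass, where 32.1% of all genes were higher and 32.8% lower. The chains of the main load-bearing fibrils rose over the whole series: Col1a1 and Col1a2, which together make type I collagen, and Col3a1, which makes the type III homotrimer found with type I in extensible tissue. Col1a1 had 21.98, 48.7 and 38.9 CPM at E9.5, 185, 174, 123 and 125 CPM at E10.5, 577, 619, 486 and 639.8 CPM at E12.5, 766, 964 and 879.9 CPM at E14.5, and 1388, 1472, 1528 and 1281 CPM at E16.5. All 4 E16.5 libraries lay above every earlier library, and each stage lay above the one before with no overlap. The log2 fold change at E16.5 against E9.5 was 5.28 ± 0.26 SE, edgeR adjusted p = 2.82e-11, and 6.01 within the 13 libraries. Col1a2 had 43.6, 69.6 and 57.8 CPM at E9.5, 191, 192, 146 and 148 CPM at E10.5, 558, 568, 433 and 590.3 CPM at E12.5, 763, 884 and 758 CPM at E14.5, and 1108, 1073, 1235 and 935 CPM at E16.5. The stages again did not overlap from step to step. Col1a2 rose by 4.25 ± 0.18 SE, edgeR adjusted p = 4.93e-13, on the log2 scale, and by 4.65 within the 13 libraries. Col3a1 had 135, 139.8 and 99.7 CPM at E9.5, 374, 389, 336 and 345 CPM at E10.5, 1001, 940.0, 779.8 and 988 CPM at E12.5, 1243, 1287 and 1175 CPM at E14.5, and 1646, 1571, 1844 and 1518 CPM at E16.5. E16.5 libraries were the highest and E9.5 libraries the lowest, with no overlap between neighbouring stages. The corresponding log2 fold change of Col3a1 was 3.72 ± 0.13 SE, edgeR adjusted p = 8.74e-15, and 3.61 within the 13 libraries.

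On the log2 scale, most of the rise of these 3 genes fell in the first 2 steps. At E10.5 against E9.5 the log2 fold change was 2.06 ± 0.22 SE, edgeR adjusted p = 8.32e-06 for Col1a1, with 2.501 within the 13 libraries and 2.04 within the 5. It was 1.57 ± 0.16 SE, edgeR adjusted p = 1.79e-06 for Col1a2 (1.76 and 1.59) and 1.53 ± 0.11 SE, edgeR adjusted p = 4.42e-08 for Col3a1 (1.33 and 1.67). At E12.5 against E10.5 it was 1.93 ± 0.20 SE, edgeR adjusted p = 1.28e-06 for Col1a1, 1.67 ± 0.14 SE, edgeR adjusted p = 4.96e-08 for Col1a2 and 1.36 ± 0.10 SE, edgeR adjusted p = 6.4e-09 for Col3a1, and within the 13 libraries 2.17, 1.82 and 1.41 in that order. Later steps were smaller on the log2 scale. At E14.5 against E12.5 the log2 fold changes were 0.58 ± 0.15 SE, edgeR adjusted p = 0.0115 for Col1a2 and 0.41 ± 0.11 SE, edgeR adjusted p = 0.0128 for Col3a1, and both calls were lost without E14.5 replicate 2 (edgeR adjusted p = 0.067 and 0.061). Col1a1 did not pass in that step (0.58 ± 0.20 SE, edgeR adjusted p = 0.0653), although it passed within the 13 libraries (0.63). At E16.5 against E14.5 they were 0.70 ± 0.21 SE, edgeR adjusted p = 0.0258 for Col1a1, 0.44 ± 0.15 SE, edgeR adjusted p = 0.0458 for Col1a2 and 0.41 ± 0.11 SE, edgeR adjusted p = 0.0117 for Col3a1, and none of the 3 passed with scaling by library totals alone. The call of Col1a1 in this last step was lost when any one of E14.5 replicates 1 to 3 or E16.5 replicates 2 and 3 was left out (highest edgeR adjusted p = 0.12), and that of Col1a2 when any single library of the 2 stages other than E16.5 replicate 4 was left out (highest edgeR adjusted p = 0.16).

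The minor fibrillar chains, which start and limit fibril growth, moved in different ways. Col5a1 had 168, 196 and 234 CPM at E9.5, 187, 221, 194 and 187 CPM at E10.5, 226, 246, 222 and 262 CPM at E12.5, 261, 312 and 259 CPM at E14.5, and 351, 386, 390.2 and 324 CPM at E16.5. Col5a1 encodes the common chain of type V collagen, and its E16.5 libraries lay above all E9.5 libraries while E10.5 and E9.5 overlapped. Its log2 fold change at E16.5 against E9.5 was 0.87 ± 0.11 SE, edgeR adjusted p = 7.68e-07, and 1.119 within the 13 libraries. Col5a2, the partner chain, had stage means of 63.2, 121, 277, 264 and 208 CPM and was highest at E12.5. At E12.5 against E10.5 it rose by 1.19 ± 0.11 SE, edgeR adjusted p = 9.28e-08, on the log2 scale (1.29 within the 13 libraries), and at E16.5 against E9.5 by 1.72 ± 0.12 SE, edgeR adjusted p = 3.77e-10 (1.75). Its value at E16.5 against E14.5 was -0.34 ± 0.12 SE, edgeR adjusted p = 0.0458, a call lost without E14.5 replicate 1 or 2 or E16.5 replicate 1 or 4 (highest edgeR adjusted p = 0.23). The third type V gene, Col5a3, had 7.49, 4.85, 4.29 and 4.53 CPM in the E16.5 libraries, against 0.393, 0.260 and 0.0332 CPM at E9.5. All 14 libraries before E16.5 stayed under 1 CPM. The log2 fold change was 2.92 ± 0.45 SE, edgeR adjusted p = 0.000176 at E16.5 against E14.5 (2.92 within the 13 libraries) and 4.49 ± 0.52 SE, edgeR adjusted p = 3.98e-07 at E16.5 against E9.5 (3.74 within the 13 libraries).

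The other 4 fibrillar genes were low. Col24a1, a minor fibrillar collagen of developing bone and cornea, had stage means of 0.576, 1.09, 2.08, 4.46 and 4.996 CPM and a log2 fold change of 3.11 ± 0.26 SE, edgeR adjusted p = 3.52e-09 at E16.5 against E9.5 (3.196 within the 13 libraries). Col27a1, known from cartilage, had 11.98, 15.4, 25.5, 30.9 and 26.8 CPM and 1.16 ± 0.14 SE, edgeR adjusted p = 5.04e-07 (1.39). Col11a1, a chain of the type XI collagen found in the core of cartilage fibrils, had 14.3, 18.6, 25.05, 18.96 and 12.9 CPM, with E16.5 and E9.5 overlapping (-0.14 ± 0.15 SE, edgeR adjusted p = 0.409, not called). It was lower at E16.5 against E14.5, with -0.55 ± 0.15 SE, edgeR adjusted p = 0.012 (-0.55 within the 13 libraries), a call lost without E14.5 replicate 2 (edgeR adjusted p = 0.086). Its partner Col11a2 passed in none of the 5 comparisons with edgeR, with stage means of 2.63, 2.52, 3.37, 3.87 and 3.58 CPM.

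Col2a1, the main fibrillar collagen of cartilage, was the 1 fibrillar gene called lower at E16.5 than at E9.5. Col2a1 had 619.7, 726 and 962 CPM at E9.5, 334, 367, 374 and 339 CPM at E10.5, 96.2, 106, 95.7 and 124 CPM at E12.5, 38.01, 36.98 and 24.2 CPM at E14.5, and 4.45, 6.13, 6.201 and 5.15 CPM at E16.5. The 4 E16.5 libraries were the lowest, the 3 E9.5 libraries the highest, and no neighbouring stages overlapped. Col2a1 was lower in all 4 steps, with log2 fold changes of -1.121 ± 0.15 SE, edgeR adjusted p = 5.83e-05 at E10.5 against E9.5, -1.75 ± 0.15 SE, edgeR adjusted p = 7.48e-08 at E12.5 against E10.5, -1.67 ± 0.17 SE, edgeR adjusted p = 2.96e-06 at E14.5 against E12.5 and -2.59 ± 0.17 SE, edgeR adjusted p = 8.05e-08 at E16.5 against E14.5. Within the 13 libraries these were -0.79, -1.85, -1.58 and -2.59, and within the 5 libraries -1.26 and -1.501 for the first 2 steps. Over the whole series, E16.5 against E9.5, it was -7.13 ± 0.20 SE, edgeR adjusted p = 4.17e-15 (-6.81 within the 13 libraries). Of 8 other cartilage markers, 6 were tested, of which 4 were higher and 2 lower at E16.5 against E9.5. Of all genes tested, 32.1% were higher and 32.8% lower. The summed level of the 8 markers was 18.01 to 24.3 CPM at E16.5 and 427 to 499 CPM at E9.5. At E9.5 nearly all of that sum was Hapln1, a link protein that is also made in the cardiac jelly, with 10.8 ± 2.94 CPM at E16.5 (SD, n = 4) and 456 ± 36.00 CPM at E9.5 (SD, n = 3). Acan, the aggrecan core protein of cartilage, had 5.92 ± 2.34 CPM at E16.5 and 0.887 ± 0.226 CPM at E9.5. Snorc was at 0 in every library of both stages, Epyc was at 0 in every E9.5 library, and Matn1 averaged 0.00814 CPM at E16.5 and 0.0317 CPM at E9.5, below the level that a count of 0 allows.

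**Figure D2:**
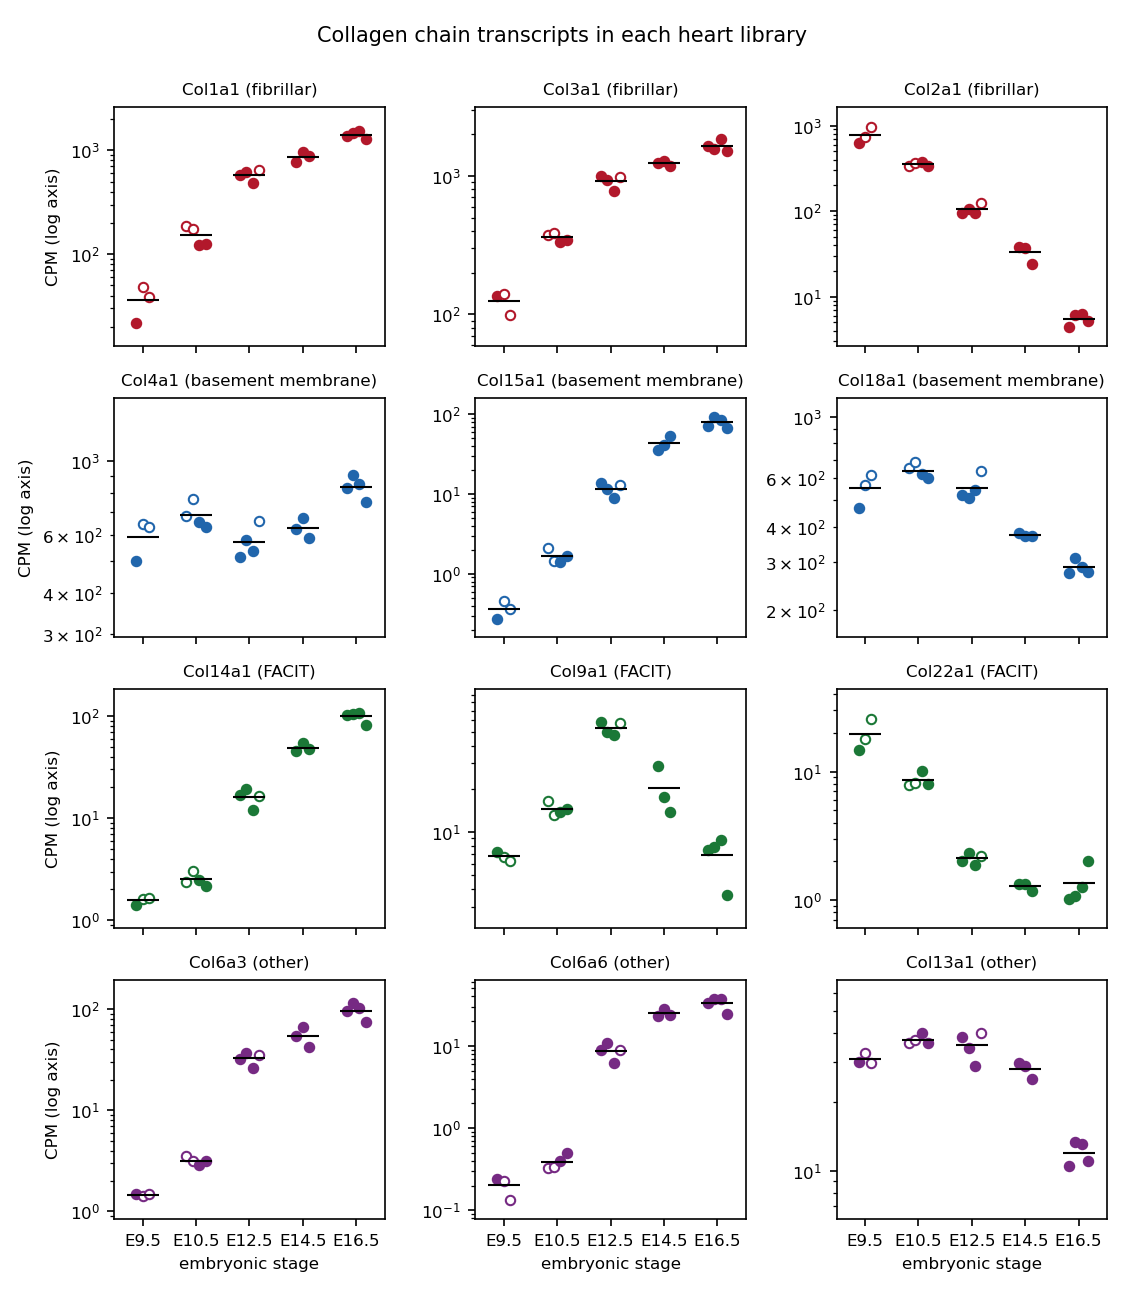
Level of 12 collagen genes in each library, in CPM on a log axis, by stage; points are libraries, open points are the 5 libraries with under 3 CPM of the activated macrophage transcripts, bars are stage means and colours are classes. Col1a1, Col3a1, Col15a1, Col14a1, Col6a3 and Col6a6 climb with stage, Col2a1 and Col22a1 descend, Col9a1 peaks at E12.5 with 47.1 to 58.4 CPM, and Col4a1 stays between 499.8 and 910.4 CPM.

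The basement membrane genes did not move as 1 group. At E16.5 against E9.5, 5 of 8 were higher, 2 lower and 1 did not pass, against 32.1% of all genes higher and 32.8% lower. Col4a1 and Col4a2, whose chains form the type IV network found in nearly all basement membranes, were among the most abundant collagens at every stage and changed little. Col4a1 had 499.8, 644 and 631 CPM at E9.5, 683, 770.2, 656 and 632 CPM at E10.5, 514, 576, 535 and 661 CPM at E12.5, 623, 674 and 585 CPM at E14.5, and 828, 910.4, 855 and 752 CPM at E16.5. Col4a2 had 338, 413 and 416 CPM at E9.5, 437, 513, 439 and 408 CPM at E10.5, 369, 401, 369 and 458 CPM at E12.5, 424, 503 and 425 CPM at E14.5, and 577, 674, 573 and 505 CPM at E16.5. For both genes the E16.5 libraries lay above every E9.5 library and every E14.5 library, while the stages before overlapped. The log2 fold changes at E16.5 against E9.5 were 0.50 ± 0.10 SE, edgeR adjusted p = 0.000324 for Col4a1 (0.75 within the 13 libraries) and 0.58 ± 0.11 SE, edgeR adjusted p = 0.00013 for Col4a2 (0.79). At E16.5 against E14.5 they were 0.41 ± 0.10 SE, edgeR adjusted p = 0.0082 and 0.37 ± 0.11 SE, edgeR adjusted p = 0.0237 in the same order, and neither passed with scaling by library totals alone. The call of Col4a2 in that step was lost without E14.5 replicate 1 or 3 or E16.5 replicate 2 (highest edgeR adjusted p = 0.12). At E12.5 against E10.5 Col4a1 had a log2 fold change of -0.26 ± 0.10 SE, edgeR adjusted p = 0.0364, a call lost without 5 of the 8 libraries, E10.5 replicates 1 and 2 and E12.5 replicates 1 to 3 (highest edgeR adjusted p = 0.13).

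The chains of more specialised networks differed from this pair. Col4a5 had 113, 144 and 139 CPM at E9.5, 158, 169, 156 and 149.7 CPM at E10.5, 157, 195, 161 and 212 CPM at E12.5, 184, 174 and 145 CPM at E14.5, and 137, 149, 155 and 138 CPM at E16.5. Col4a5, on the X chromosome, did not pass in any of the 5 comparisons in the fit over all libraries, and at E16.5 against E9.5 its value was 0.14 ± 0.11 SE, edgeR adjusted p = 0.277. Within the 13 libraries, where E9.5 is 1 library, the value was 0.37. Col4a6, which starts beside it, had stage means of 43.98, 55.1, 59.2, 49.3 and 29.8 CPM and its E16.5 libraries lay below all others. The log2 fold change of Col4a6 was -0.73 ± 0.11 SE, edgeR adjusted p = 0.000168 at E16.5 against E14.5 and -0.56 ± 0.11 SE, edgeR adjusted p = 0.00026 at E16.5 against E9.5, where it did not pass within the 13 libraries (-0.29, edgeR adjusted p = 0.0776). Col4a3 and Col4a4, chains of the glomerular type of network, were low, with stage means of 0.274, 0.579, 1.09, 1.497 and 2.14 CPM for Col4a3 and 0.586, 1.07, 1.903, 2.18 and 3.65 CPM for Col4a4. Every E16.5 library was above every E9.5 library for both. Set against E9.5, the E16.5 log2 fold changes were 2.94 ± 0.30 SE, edgeR adjusted p = 5.66e-08 for Col4a3 (2.68 within the 13 libraries) and 2.63 ± 0.26 SE, edgeR adjusted p = 3.14e-08 for Col4a4 (2.83). C430014B12Rik, on the opposite strand, overlaps 5.65% of the Col4a3 exon length, and since the strand setting of the counting is not given, its reads and those of Col4a3 cannot be told apart there.

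Col15a1 and Col18a1, the related proteoglycan collagens of the basement membrane zone, moved in opposite directions. Col15a1 had 0.272, 0.454 and 0.365 CPM at E9.5, 2.12, 1.47, 1.405 and 1.68 CPM at E10.5, 13.7, 11.5, 8.899 and 12.9 CPM at E12.5, 35.6, 41.5 and 53.6 CPM at E14.5, and 72.1, 93.7, 83.9 and 66.4 CPM at E16.5. Col15a1 was highest in the 4 E16.5 libraries and lowest in the 3 E9.5 libraries, with no overlap between neighbouring stages. It rose in every step, by 2.201 ± 0.31 SE, edgeR adjusted p = 6.18e-05, 2.802 ± 0.18 SE, edgeR adjusted p = 2.39e-09, 1.89 ± 0.16 SE, edgeR adjusted p = 6.08e-07 and 0.86 ± 0.16 SE, edgeR adjusted p = 0.00105 on the log2 scale. Within the 13 libraries these were 2.495 (not called, edgeR adjusted p = 0.0597), 2.87, 1.94 and 0.86. Over the whole series, E16.5 against E9.5, it was 7.76 ± 0.26 SE, edgeR adjusted p = 4.2e-14 (8.17 within the 13 libraries). Col18a1 had 469, 567 and 618 CPM at E9.5, 649.9, 685, 619 and 602 CPM at E10.5, 520.3, 509.8, 544 and 638 CPM at E12.5, 381, 372 and 369.7 CPM at E14.5, and 272, 308, 287 and 276 CPM at E16.5. Col18a1, whose protein is the source of the fragment endostatin, overlapped between the first 3 stages, and its E14.5 and E16.5 libraries lay below all of them. It fell at E14.5 against E12.5, with -0.56 ± 0.09 SE, edgeR adjusted p = 0.00029, at E16.5 against E14.5, with -0.39 ± 0.09 SE, edgeR adjusted p = 0.00468, and at E16.5 against E9.5, with -0.95 ± 0.09 SE, edgeR adjusted p = 1.74e-08. Within the 13 libraries the 3 values were -0.49, -0.39 and -0.71.

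Of the FACIT genes, 3 were higher at E16.5 than at E9.5, 1 was lower, 4 did not pass and Col19a1 was not tested. Of all genes 64.9% passed, 32.1% higher and 32.8% lower, so the share of FACIT genes called higher was near that of all genes. Col14a1 and Col16a1, whose products bind to the surface of fibrils in soft connective tissue, had the largest rises of the class. Col14a1 had 1.42, 1.62 and 1.66 CPM at E9.5, 2.39, 3.03, 2.49 and 2.18 CPM at E10.5, 17.00, 19.2, 12.1 and 16.7 CPM at E12.5, 45.4, 54.4 and 47.4 CPM at E14.5, and 102, 105, 108 and 81.6 CPM at E16.5. Its libraries were ordered by stage with no overlap. Col14a1 rose by 2.68 ± 0.14 SE, edgeR adjusted p = 5.35e-11, on the log2 scale at E12.5 against E10.5, by 1.597 ± 0.13 SE, edgeR adjusted p = 1.91e-07 at E14.5 against E12.5 and by 1.02 ± 0.13 SE, edgeR adjusted p = 2.37e-05 at E16.5 against E14.5 (2.78, 1.61 and 1.02 within the 13 libraries). At E10.5 against E9.5 it had 0.69 ± 0.18 SE, edgeR adjusted p = 0.0129, a call lost within the 13 libraries (0.72) and without E9.5 replicate 1 (edgeR adjusted p = 0.059). The E16.5 against E9.5 value was 5.99 ± 0.18 SE, edgeR adjusted p = 3.31e-15 (6.13). Col16a1 had 4.11, 5.095 and 2.69 CPM at E9.5, 20.7, 22.6, 19.3 and 17.5 CPM at E10.5, 68.7, 62.6, 55.3 and 68.3 CPM at E12.5, 76.02, 80.7 and 71.9 CPM at E14.5, and 67.1, 69.8, 75.6 and 64.6 CPM at E16.5. Col16a1 climbed without overlap up to E14.5, and its E16.5 and E14.5 libraries overlapped. The log2 fold changes were 2.33 ± 0.15 SE, edgeR adjusted p = 1.36e-08 at E10.5 against E9.5, 1.67 ± 0.12 SE, edgeR adjusted p = 4.45e-09 at E12.5 against E10.5 and 4.12 ± 0.16 SE, edgeR adjusted p = 5.38e-14 at E16.5 against E9.5 (2.17, 1.76 and 4.08 within the 13 libraries).

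The 3 type IX genes, whose chains coat type II fibrils in cartilage, shared a peak in the middle of the series. Col9a1 had 7.22, 6.72 and 6.31 CPM at E9.5, 16.48, 13.1, 13.7 and 14.4 CPM at E10.5, 58.4, 49.9, 47.1 and 57.6 CPM at E12.5, 29.03, 17.4 and 13.9 CPM at E14.5, and 7.46, 7.795, 8.82 and 3.62 CPM at E16.5. The 4 E12.5 libraries lay above all other libraries, and the E16.5 and E9.5 libraries overlapped. Col9a2 had 5.77, 6.26 and 5.38 CPM at E9.5, 7.93, 8.27, 6.81 and 8.24 CPM at E10.5, 30.4, 23.3, 20.5 and 23.3 CPM at E12.5, 24.9, 27.1 and 25.5 CPM at E14.5, and 12.3, 12.1, 13.4 and 9.25 CPM at E16.5. Col9a2 was high at both E12.5 and E14.5. Col9a3 had stage means of 4.47, 14.7, 29.02, 16.6 and 6.09 CPM and was highest at E12.5. At E12.5 against E10.5 the log2 fold changes were 1.88 ± 0.23 SE, edgeR adjusted p = 8.84e-06 for Col9a1, 1.64 ± 0.12 SE, edgeR adjusted p = 5.69e-09 for Col9a2 and 0.98 ± 0.20 SE, edgeR adjusted p = 0.00114 for Col9a3 (1.88, 1.71 and 1.05 within the 13 libraries). At E16.5 against E14.5 they were -1.54 ± 0.25 SE, edgeR adjusted p = 0.00044 for Col9a1, -1.13 ± 0.13 SE, edgeR adjusted p = 5.01e-06 for Col9a2 and -1.45 ± 0.23 SE, edgeR adjusted p = 0.000271 for Col9a3 (-1.54, -1.13 and -1.45). Between these steps, at E14.5 against E12.5, Col9a1 was lower with -1.402 ± 0.25 SE, edgeR adjusted p = 0.00103 (-1.36) and Col9a3 with -0.80 ± 0.22 SE, edgeR adjusted p = 0.021 (-0.82), and the Col9a3 call was lost without E12.5 replicate 1 or E14.5 replicate 2 or 3 (highest edgeR adjusted p = 0.11). Tcfl5, on the opposite strand, overlaps 6.07% of the Col9a3 exon length, where reads of the 2 genes cannot be told apart. The decline of the type IX genes came after that of Col2a1, whose highest stage was E9.5.

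The same course, higher at E12.5 against E10.5 and lower at E16.5 against E14.5, was found for 8 of the 41 tested members: Col5a2, Col11a1, Col9a1, Col9a2, Col9a3, Col20a1, Col23a1 and Col25a1. Of all 18885 genes tested, 275, or 1.46%, took it, and this pattern was chosen after the values were seen. Leaving out 1 library ended a call that 3 of the 8 needed. That of Col11a1 at E12.5 against E10.5 (0.43 ± 0.13 SE, edgeR adjusted p = 0.0163) was lost without E10.5 replicate 3 or 4 or E12.5 replicate 1 (highest edgeR adjusted p = 0.053), as was that at E16.5 against E14.5 without E14.5 replicate 2. The calls of Col5a2 and Col20a1 that were lost in this way are given with each gene. The remaining FACIT genes were low or changed in other ways. Col22a1, known from muscle and tendon junctions, had stage means of 19.5, 8.53, 2.11, 1.28 and 1.34 CPM and its 3 E9.5 libraries lay above all others. Its log2 fold change was -1.19 ± 0.19 SE, edgeR adjusted p = 0.000195 at E10.5 against E9.5, -2.02 ± 0.19 SE, edgeR adjusted p = 1.38e-07 at E12.5 against E10.5 and -3.86 ± 0.22 SE, edgeR adjusted p = 8.29e-12 at E16.5 against E9.5 (-0.70, -2.14 and -3.46 within the 13 libraries, the first not called there). Col12a1, a FACIT of dense connective tissue, had 29.0, 44.8 and 71.9 CPM at E9.5 and stage means of 48.6, 28.2, 33.9, 36.5 and 42.5 CPM. At E10.5 against E9.5 it was called lower, with -0.78 ± 0.25 SE, edgeR adjusted p = 0.0431, but not within the 13 libraries (-0.22) nor when any single library other than E9.5 replicate 1 was left out (highest edgeR adjusted p = 0.31). Col20a1 stayed between 0.456 and 1.78 CPM in all libraries. Its call at E12.5 against E10.5 (0.74 ± 0.25 SE, edgeR adjusted p = 0.0273) was lost without E10.5 replicate 2 or 4 or E12.5 replicate 2, and its call at E16.5 against E14.5 (-0.79 ± 0.27 SE, edgeR adjusted p = 0.0435) without any of E14.5 replicates 1 to 3 or E16.5 replicates 1 and 4 (highest edgeR adjusted p = 0.083 and 0.13). Col19a1 had no count in any E9.5 library and at most 13 counts in a library.

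Of the remaining 16 members, 10 were higher at E16.5 than at E9.5, 3 were lower, 1 did not pass and 2 were not tested, against 32.1% of all genes higher and 32.8% lower. Type VI collagen, a beaded filament of the matrix around cells, rose in its main chains. Its main trimer holds the products of Col6a1, Col6a2 and Col6a3. Col6a1 had 14.8, 18.5 and 14.6 CPM at E9.5, 39.1, 42.8, 34.6 and 34.99 CPM at E10.5, 82.98, 76.01, 66.7 and 87.1 CPM at E12.5, 129.8, 143 and 143 CPM at E14.5, and 257, 258, 252 and 185 CPM at E16.5. Col6a2 had 28.4, 32.5 and 32.8 CPM at E9.5, 44.5, 50.5, 42.99 and 41.7 CPM at E10.5, 95.7, 88.04, 83.6 and 95.9 CPM at E12.5, 139, 155 and 158 CPM at E14.5, and 315, 319, 304 and 253 CPM at E16.5. Col6a3 had 1.48, 1.43 and 1.49 CPM at E9.5, 3.51, 3.13, 2.86 and 3.17 CPM at E10.5, 31.9, 37.03, 26.4 and 35.4 CPM at E12.5, 54.9, 66.8 and 42.6 CPM at E14.5, and 96.1, 114, 102 and 75.4 CPM at E16.5. For all 3 genes the libraries were ordered by stage with no overlap between neighbouring stages. At E16.5 against E9.5 the log2 fold changes were 3.899 ± 0.14 SE, edgeR adjusted p = 1.92e-14 for Col6a1, 3.25 ± 0.10 SE, edgeR adjusted p = 4.17e-15 for Col6a2 and 6.04 ± 0.20 SE, edgeR adjusted p = 2.85e-14 for Col6a3 (4.01, 3.39 and 6.04 within the 13 libraries). The step of Col6a3 at E12.5 against E10.5, 3.36 ± 0.16 SE, edgeR adjusted p = 2.46e-11, exceeded those of its partners, 1.05 ± 0.11 SE, edgeR adjusted p = 5.72e-07 for Col6a1 and 1.02 ± 0.08 SE, edgeR adjusted p = 2.32e-08 for Col6a2 (3.39, 1.11 and 1.07 within the 13 libraries); no test of that difference between genes was made.

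The 3 chains related to Col6a3, encoded in tandem on chromosome 9, were unequal. Col6a6 had 0.242, 0.227 and 0.133 CPM at E9.5, 0.331, 0.337, 0.398 and 0.498 CPM at E10.5, 8.88, 10.97, 6.22 and 9.003 CPM at E12.5, 23.01, 28.1 and 23.5 CPM at E14.5, and 33.2, 37.3, 37.4 and 24.2 CPM at E16.5. All libraries from E12.5 on were above 6 CPM, and the E9.5 and E10.5 libraries were all under 0.5 CPM. Col6a6 rose by 4.48 ± 0.21 SE, edgeR adjusted p = 1.77e-11, on the log2 scale at E12.5 against E10.5 and by 1.51 ± 0.16 SE, edgeR adjusted p = 4.89e-06 at E14.5 against E12.5 (4.26 and 1.52 within the 13 libraries). The E16.5 against E9.5 value was 7.33 ± 0.27 SE, edgeR adjusted p = 4.47e-14 (7.08). Its neighbour Col6a5 had 11, 10, 14 and 14 counts in the E16.5 libraries and 0, 0 and 1 count in the E9.5 libraries, and is counted as higher in that comparison (edgeR adjusted p = 3.68e-05). Col6a5 met the filter on low counts only through the E16.5 libraries, so this call depends on the filter and is not taken as support for a rise. Its call at E10.5 against E9.5 (edgeR adjusted p = 0.0448) was lost without E9.5 replicate 1 or 2 or E10.5 replicate 1, 3 or 4 and within the 13 libraries. Col6a4 had at most 6 counts in any library.

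The transmembrane collagens, which tie cells to the matrix, mostly peaked before E16.5. Col13a1 had 29.9, 32.8 and 29.6 CPM at E9.5, 36.3, 37.2, 40.00 and 36.2 CPM at E10.5, 38.7, 34.3, 28.7 and 40.2 CPM at E12.5, 29.5, 28.9 and 25.2 CPM at E14.5, and 10.47, 13.4, 13.2 and 11.01 CPM at E16.5. Col13a1, a collagen of adhesive junctions, had its 4 E16.5 libraries below all others. Its log2 fold change was -1.22 ± 0.11 SE, edgeR adjusted p = 4.79e-07 at E16.5 against E14.5 and -1.36 ± 0.11 SE, edgeR adjusted p = 1.69e-09 at E16.5 against E9.5 (-1.22 and -1.31 within the 13 libraries). Col23a1 had 23.5, 21.7 and 18.5 CPM at E9.5, 38.2, 36.8, 35.4 and 34.1 CPM at E10.5, 55.4, 54.8, 61.1 and 61.3 CPM at E12.5, 47.7, 53.2 and 46.9 CPM at E14.5, and 35.3, 36.2, 32.8 and 41.4 CPM at E16.5. The 4 E12.5 libraries of Col23a1 were above all other libraries, and E16.5 lay above E9.5 without overlap. The log2 fold changes of Col23a1 were 0.77 ± 0.09 SE, edgeR adjusted p = 7.5e-06 at E10.5 against E9.5, 0.69 ± 0.08 SE, edgeR adjusted p = 2.18e-06 at E12.5 against E10.5, -0.44 ± 0.09 SE, edgeR adjusted p = 0.00165 at E16.5 against E14.5 and 0.78 ± 0.09 SE, edgeR adjusted p = 3.46e-07 at E16.5 against E9.5 (0.57, 0.72, -0.44 and 0.64 within the 13 libraries). Col25a1, a collagen that acts at developing neuromuscular synapses, had stage means of 2.57, 2.95, 5.68, 6.804 and 3.45 CPM and was lower at E16.5 against E14.5 with -0.98 ± 0.15 SE, edgeR adjusted p = 0.000162 (-0.98). Its E16.5 against E9.5 value was 0.42 ± 0.16 SE, edgeR adjusted p = 0.0261, a call lost without E9.5 replicate 1 or 3 or E16.5 replicate 3 (highest edgeR adjusted p = 0.12). Col17a1, a hemidesmosome component of skin, had stage means of 0.148, 0.502, 0.878, 0.909 and 0.805 CPM and 2.41 ± 0.46 SE, edgeR adjusted p = 0.00014 at E16.5 against E9.5 (2.13).

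Of the last members, Col8a1 and Col8a2, which encode the short chains of type VIII collagen in vessel walls and cornea, went in opposite directions. Col8a2 had stage means of 1.904, 8.82, 12.7, 16.3 and 14.1 CPM and Col8a1 had 8.56, 5.38, 4.35, 4.34 and 3.31 CPM. At E16.5 against E9.5 the log2 fold change was 2.89 ± 0.23 SE, edgeR adjusted p = 3.26e-09 for Col8a2 and -1.37 ± 0.22 SE, edgeR adjusted p = 1.88e-05 for Col8a1, and 3.87 and -0.66 within the 13 libraries in the same order. The fall of Col8a1 was thus larger with the 2 E9.5 libraries outside that set, which had 11.1 and 9.37 CPM against 5.25 CPM in E9.5 replicate 1. Col7a1, the anchoring fibril collagen of skin, had stage means of 12.2, 4.99, 3.57, 3.38 and 2.56 CPM and -2.25 ± 0.22 SE, edgeR adjusted p = 2.51e-08 at E16.5 against E9.5 (-1.91). Col26a1, a collagen first described in testis and ovary, had stage means of 23.3, 41.5, 45.6, 46.5 and 21.6 CPM, was higher at E10.5 against E9.5 with 0.83 ± 0.10 SE, edgeR adjusted p = 5.72e-06 and lower at E16.5 against E14.5 with -1.102 ± 0.09 SE, edgeR adjusted p = 3.2e-07 (0.69 and -1.103). Its E16.5 and E9.5 libraries overlapped (-0.11 ± 0.10 SE, edgeR adjusted p = 0.333, not called), although without E9.5 replicate 3 it was called lower (edgeR adjusted p = 0.042). Col28a1, a collagen of peripheral nerve, had 0.547 ± 0.166 CPM at E16.5 (SD, n = 4) and no count in the 3 E9.5 libraries, which is at least 5.70-fold higher when E9.5 is set at the floor of 3 counts per library. It is counted as higher at E16.5 against E9.5 (edgeR adjusted p = 6.52e-06) and at E14.5 against E12.5 with 2.89 ± 0.56 SE, edgeR adjusted p = 0.0017 (3.06). Col28a1 met the filter on low counts only through its E14.5 and E16.5 libraries. These calls therefore depend on the filter and are not taken as support for a rise. Col10a1, the collagen of hypertrophic cartilage, had no count in 11 of 18 libraries.

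**Figure D3:**
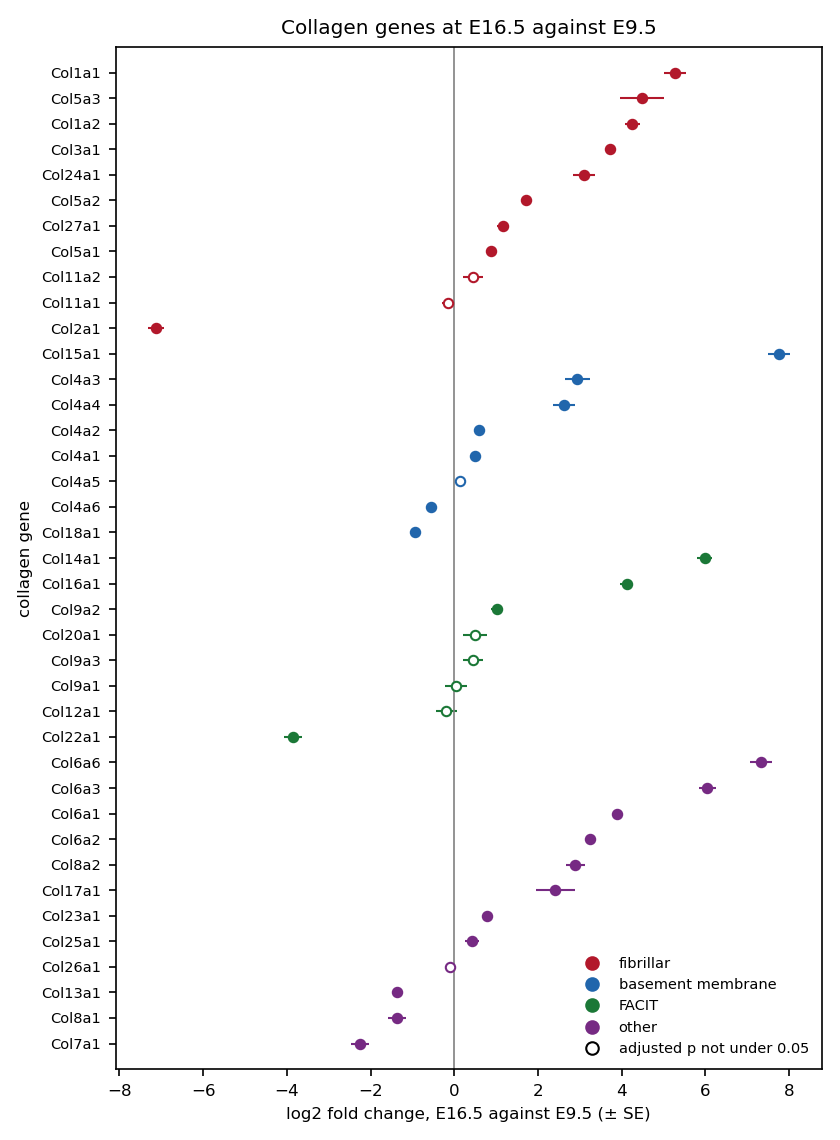
Log2 fold change at E16.5 against E9.5 (x axis, points, with bars for ± 1 SE) of 39 collagen genes, coloured by class, with open points where the edgeR adjusted p was not under 0.05; Col28a1 and Col6a5 are left out because their E9.5 libraries held 0 or 1 count. Col15a1 (7.76) and Col6a6 (7.33) are farthest to the right and Col2a1 (-7.13) farthest to the left.

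Chains that share a trimer were also compared with each other per kilobase of merged exon, a scale that allows levels of different genes to be set side by side. The absolute ratios depend on the exon lengths used, which for Col1a2 is 12426 bp and for Col1a1 6563 bp, so their change over the stages is the more readable quantity. Type I collagen holds more of the Col1a1 product than of the Col1a2 product, and the ratio of Col1a1 to Col1a2 was 1.18 ± 0.201, 1.69 ± 0.112, 2.05 ± 0.0678, 2.05 ± 0.149 and 2.48 ± 0.138 in stage order (SD). Every E16.5 library was above every earlier library. Col4a1 to Col4a2, the pair with starts 21 bp apart, kept a ratio of 1.35, 1.35, 1.27, 1.24 and 1.28 from stage to stage, with single libraries between 1.19 and 1.39. The ratio of Col5a1 to Col5a2 was 3.57, 1.85, 0.981, 1.20 and 1.98, lowest at E12.5. That of Col6a1 to Col6a2 was 0.972, 1.60, 1.63, 1.75 and 1.51, with all later libraries at 1.39 to 1.77 and the E9.5 libraries at 0.849 to 1.08. Col3a1 to Col1a1, the type III to type I balance, was 2.58 ± 1.33, 1.63 ± 0.245, 1.07 ± 0.0641, 0.957 ± 0.112 and 0.777 ± 0.0426, so that the E16.5 libraries lay at 0.713 to 0.807 and the E9.5 libraries at 1.71 to 4.12. The E9.5 mean of that ratio was 1.82 without E9.5 replicate 1, whose own value was 4.12.

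Other ratios were chosen after their values were seen. Col4a5 to Col4a6 was 3.57, 3.41, 3.62, 4.04 and 5.80, and the E16.5 libraries, at 5.58 to 6.24, lay above all others. Col6a3 to Col6a1 was 0.0341, 0.0308, 0.153, 0.145 and 0.149, with no library of the last 3 stages below 0.109 and none of the first 2 above 0.0374. Col4a3 to Col4a4 was 0.499, 0.570, 0.679, 0.736 and 0.622, with overlapping libraries. Col9a1 to Col9a2 was 0.712, 1.13, 1.35, 0.479 and 0.351, and Col4a5 to Col4a1 was 0.248, 0.257, 0.351, 0.297 and 0.193.

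**Figure D4:**
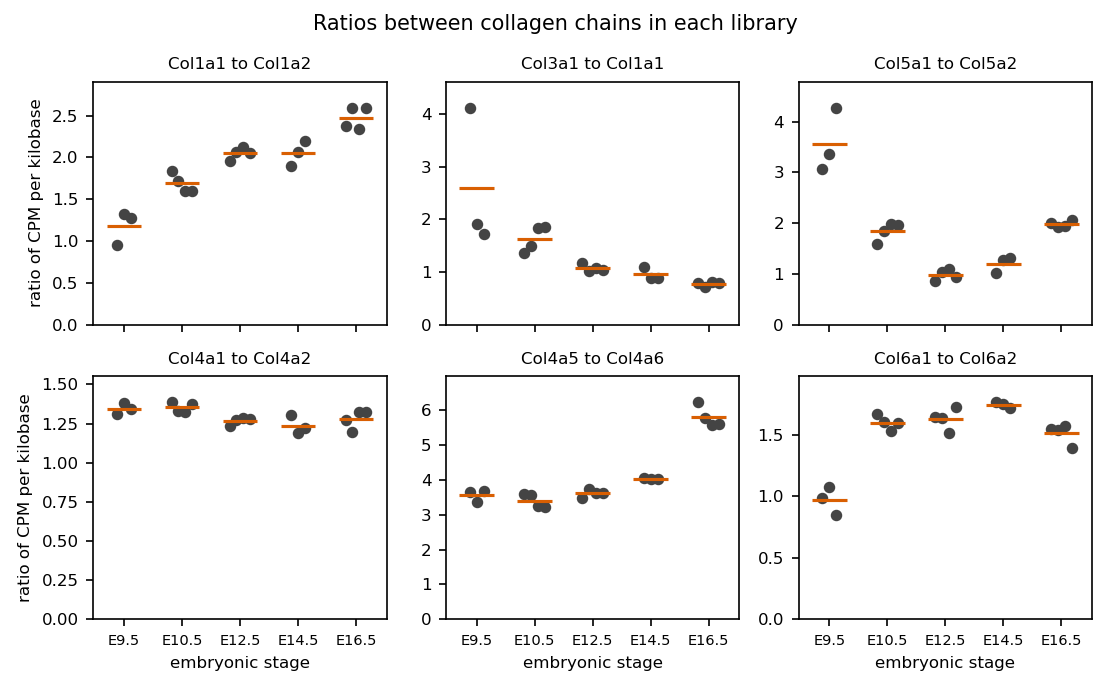
Ratio of CPM per kilobase between 6 pairs of collagen chains (y axes, from 0) by stage; points are libraries and bars are stage means. Col1a1 to Col1a2 goes up with stage, Col3a1 to Col1a1 goes down, Col5a1 to Col5a2 dips at E12.5, Col4a1 to Col4a2 stays between 1.19 and 1.39, and Col4a5 to Col4a6 is highest at E16.5.

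The make-up of the collagen transcripts changed from a basement membrane to a fibrillar majority. Per kilobase, basement membrane genes held 58.3% ± 1.18, 58.0% ± 0.717, 38.7% ± 2.35, 32.3% ± 0.554 and 28.7% ± 1.35 of the summed collagen level in stage order (SD). Fibrillar genes held 33.4% ± 1.64, 31.1% ± 0.584, 45.9% ± 1.82, 51.8% ± 0.746 and 55.7% ± 1.53 over the same stages. The largest shift lay between E10.5 and E12.5, where no library of either class overlapped the other stage. FACIT genes held 2.56%, 3.19%, 6.20%, 5.0% and 3.52%, highest at E12.5, and the other genes held 5.77%, 7.71%, 9.24%, 10.9% and 12.1%.

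The fibrillar share at E16.5 and at E9.5 was carried by different genes. At E16.5 the highest levels per kilobase were those of Col1a1 with 216 ± 16.4, Col3a1 with 168 ± 14.6, Col4a1 with 112 ± 8.83, Col4a2 with 87.97 ± 10.54 and Col1a2 with 87.5 ± 9.93 CPM per kilobase (SD, n = 4), of which the last 2 did not differ beyond their spread. This order depends on the exon lengths used, 12426 bp for Col1a2 and 6619 bp for Col4a2. Without division by length, Col1a2 had 935 to 1235 CPM at E16.5 and Col4a2 had 505 to 674 CPM. At E9.5 the highest levels per kilobase were those of Col2a1 with 83.2 ± 18.97, Col4a1 with 79.3 ± 10.7 and Col18a1 with 78.5 ± 10.7 CPM per kilobase (SD, n = 3), which did not differ beyond their spread, followed by Col4a2 with 58.8 ± 6.67. Col2a1 alone was 0.0610% ± 0.00748 of the summed level at E16.5 and 19.9% ± 2.45 at E9.5, and Col1a1 was 22.2% ± 0.316 at E16.5 and 1.32% ± 0.387 at E9.5. Col18a1 was 4.20% ± 0.286 at E16.5 and 18.9% ± 0.269 at E9.5.

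**Figure D5:**
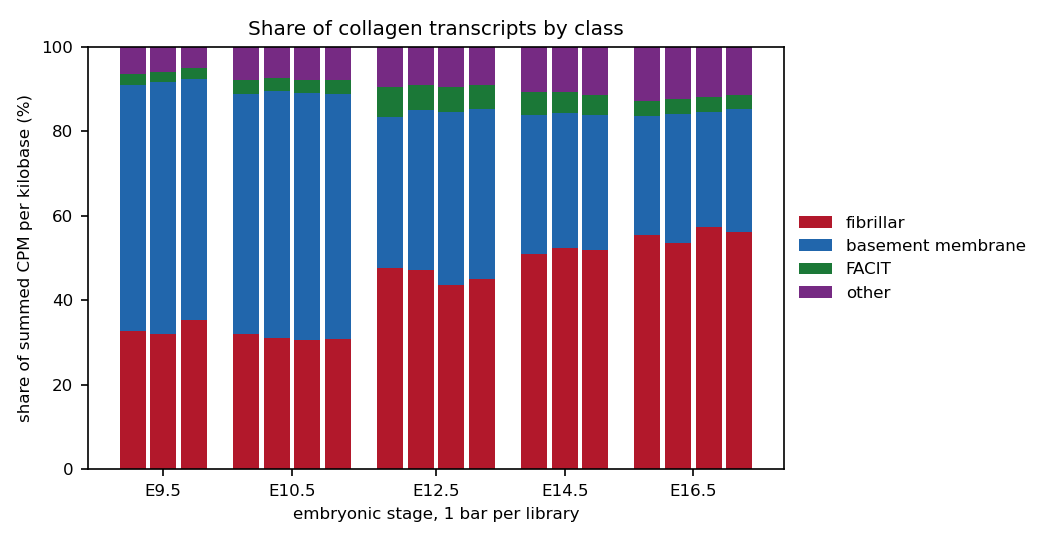
Share of the summed CPM per kilobase of the 44 collagen genes held by each class (y axis, percent, from 0) in each library, with libraries grouped by stage. The basement membrane share is 27.2 to 30.4% in the E16.5 libraries and 57.2 to 59.5% in the E9.5 libraries, and the fibrillar share is 53.6 to 57.3% at E16.5 and 32.1 to 35.2% at E9.5.

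The genes that fold, trim and cross-link collagen moved in both directions. Of 32 listed processing genes 31 were tested, and at E16.5 against E9.5, 17 were higher and 9 lower, with a median log2 fold change of 0.27 against -0.01 for all genes tested. Over all genes 32.1% were higher and 32.8% lower, so the share of the list that was lower was near that of all genes. Lox, the lysyl oxidase that cross-links fibrils, had 83.3 ± 6.25 CPM at E16.5 (SD, n = 4) and 1.297 ± 0.0344 CPM at E9.5 (SD, n = 3), a log2 fold change of 6.001 ± 0.16 SE, edgeR adjusted p = 5.37e-16 (6.004 within the 13 libraries). Adamts2, which removes the amino-terminal propeptide of procollagen, had 48.96 ± 4.57 CPM at E16.5 and 1.23 ± 0.420 CPM at E9.5 (5.31 ± 0.18 SE, edgeR adjusted p = 8.74e-15, and 5.91 within the 13 libraries). P4ha3, a prolyl hydroxylase subunit, had 3.63 ± 0.14 SE, edgeR adjusted p = 6.05e-14, Sparc, a collagen-binding matricellular protein, 1.78 ± 0.08 SE, edgeR adjusted p = 1.89e-13 and P3h3, of the prolyl hydroxylase family that modifies collagen, 1.88 ± 0.10 SE, edgeR adjusted p = 4.68e-12 (3.92, 1.67 and 1.64).

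The 5 lower processing genes with the smallest p were Serpinh1, P4hb, P3h2, Mia3 and Colgalt2. Serpinh1, the collagen chaperone HSP47, had 874 ± 34.5 CPM at E16.5 and 1187 ± 117 CPM at E9.5, a log2 fold change of -0.44 ± 0.07 SE, edgeR adjusted p = 2.86e-05 (-0.27 within the 13 libraries). P4hb, the common subunit of prolyl hydroxylase, had -0.46 ± 0.06 SE, edgeR adjusted p = 2.02e-06 (-0.41), and P3h2, which hydroxylates type IV collagen, had -1.48 ± 0.12 SE, edgeR adjusted p = 2.28e-09 (-1.06). Mia3, an export factor for procollagen, had -0.43 ± 0.08 SE, edgeR adjusted p = 0.00011 (-0.33), and Colgalt2, a galactosyltransferase of collagen, had -0.61 ± 0.14 SE, edgeR adjusted p = 0.000655 but did not pass within the 13 libraries (-0.33). Within the 13 libraries 5 rather than 9 processing genes were lower.

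Among 12 collagen receptors, all tested, 9 were higher and 1 lower at E16.5 against E9.5, with a median log2 fold change of 0.53, against 32.1% of all genes higher, 32.8% lower and a median of -0.01. Ddr2, a receptor kinase for fibrillar collagen that is also among the fibroblast markers above, had 20.5 ± 3.01 CPM at E16.5 and 2.25 ± 0.665 CPM at E9.5, a log2 fold change of 3.19 ± 0.24 SE, edgeR adjusted p = 2.26e-09 (3.46 within the 13 libraries). Mrc2, which takes up collagen for breakdown, had 1.14 ± 0.13 SE, edgeR adjusted p = 1.74e-07 (1.38), and the integrin subunits Itga2, Itga1 and Itgb1 had 1.63 ± 0.22 SE, edgeR adjusted p = 2.13e-06 for Itga2, 0.68 ± 0.18 SE, edgeR adjusted p = 0.00324 for Itga1 and 0.25 ± 0.07 SE, edgeR adjusted p = 0.00625 for Itgb1 (2.18, 1.22 and 0.23, the last not called). Adgrg1, an adhesion receptor for type III collagen, was lower with 11.3 ± 0.954 CPM at E16.5 and 27.96 ± 1.55 CPM at E9.5 (-1.302 ± 0.09 SE, edgeR adjusted p = 1.48e-10, and -1.299 within the 13 libraries).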

How the data were processed

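The values the authors deposited are raw counts, whole numbers per Ensembl gene in 18 separate library tables, without normalization. Per the labels' protocols, RNA was extracted with a micro-scale total RNA kit. Tools listed in the submitters' processing notes are STAR 2.5.2b, Trimmomatic 0.36, Subread 1.5.2 and featureCounts, with the builds mm10 and GRCm38. Their order, the annotation and the strand setting are not given in the sources used. Symbols, exons and coordinates came from GENCODE M21. The tests used edgeR 4.0.16 under R 4.3.3 with limma 3.58.1: filterByExpr by stage kept 18885 genes, libraries were scaled with TMM, and a robust quasi-likelihood model of stage was fitted to all 18 libraries, with Benjamini-Hochberg adjustment over all genes and a threshold of 0.05. SE was the absolute log2 fold change divided by the square root of F. CPM use TMM-scaled totals. The fit was checked on simulated data. All 24 pairs of libraries of a stage differed by more than sampling noise, with a chi-square of 6.06 to 79.8 per degree of freedom. The 2 sets of libraries were told apart at 50 CPM of the macrophage transcripts. Alternatives were other scalings, other filters on low counts, DESeq2 1.42.0, the replicate number or the library set as a term, the 13 libraries only, the 5 libraries only (added after seeing the data), the 2 stages only, and leaving out each library. Members, classes, pathway and marker lists were chosen with earlier results of these data known. Every member is named. All libraries are given for the 4 members of each class with the highest level per kilobase and the 6 largest fold changes at E16.5 against E9.5 with at least 5 CPM. Fold changes with SE were limited by that rule to the 10 largest rises and 10 largest falls of a comparison; those beyond it were added after their values were seen, to describe each class in full. Of the processing and receptor lists, the 5 smallest p in each direction are named.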

Additional observations from a re-analysis of the deposited data

Results flagged for a closer look

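In 4 of 123 groups of 4 libraries examined, 1 library lay far from the other 3 of its stage, where chance alone flags about 1 in 20. Col11a2 had 4.963 CPM in E16.5 replicate 1, against 3.035 to 3.224 CPM in the other E16.5 libraries. Col6a1 had 185.3 CPM in E16.5 replicate 4, against 251.9 to 258.3 CPM in the others. Col4a4 had 1.285 CPM in E10.5 replicate 4, against 0.9862 to 1.016 CPM in the others. Col22a1 had 10.18 CPM in E10.5 replicate 3, against 7.845 to 8.082 CPM in the others.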

How the results depend on the processing

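Of 3392 collagen fold changes under alternatives 3168 kept their side of the threshold, 170 lost the call and 54 gained it. The sign changed in 66, none of them called in either setting and all with log2 values of at most 0.42 in size over all libraries; no called value changed direction. At E10.5 against E9.5 the 21 higher members became 13 within the 13 libraries (1 library of E9.5), and the 5 lower became 1 there, 3 with a replicate block and 3 with only the 2 stages fitted. With library totals alone, the 13 higher at E16.5 against E14.5 became 6. Within the 13 libraries the 9 lower processing genes became 5. Leaving out 1 library at a time gave 17 to 21 higher and 3 to 5 lower members at E10.5 against E9.5, 8 to 10 and 3 to 7 at E14.5 against E12.5, and 8 to 14 and 10 to 13 at E16.5 against E14.5. It ended 9 of 26, 5 of 27, 5 of 16 and 8 of 26 calls in the 4 steps and 1 of 33 at E16.5 against E9.5. Without division by length, the fibrillar shares were 39.6, 37.6, 53.3, 58.9 and 61.7%, the basement membrane shares 53.0, 53.7, 34.9, 28.6 and 25.4%, the FACIT shares 2.80, 2.62, 4.40, 3.78 and 3.07% and the other shares 4.68, 6.06, 7.4, 8.74 and 9.82% in stage order. For same-numbered libraries, deviations from the stage mean had correlations of -0.639 to 0.498, with 8 of 33 pairs over 0.1. The split into 5 and 13 libraries was not removed first. The highest value was for replicates 2 of E9.5 and E10.5, both among the 5. The lowest was for replicates 4 of E10.5 and E12.5, which lie in different sets. These values therefore cannot show whether same-numbered libraries were paired. The numbers were not taken as pairs, and the replicate block changed no other count of collagen members beyond 1.5 times. Over all genes, 3446 passed at E10.5 against E9.5, but 1215 within the 13 libraries, 6545 within the 5 libraries and 2260 without E9.5 replicate 3. At E14.5 against E12.5, 2803 passed and 1771 without E14.5 replicate 3. At E16.5 against E14.5, 3562 passed, but 2058 without E14.5 replicate 1 and 2225 without E14.5 replicate 2. Members under about 1 CPM rest on few counts, and their fold changes carry the widest errors.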

Other observations

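For each tested member, the library with the lowest and that with the highest level of its stage were noted. E16.5 replicate 4 was the lowest of its stage for 23 of 41 members and E16.5 replicate 3 the highest for 20. E14.5 replicate 2 and E9.5 replicate 2 were each the highest of their stage for 21. E12.5 replicate 3 was the lowest for 26, E14.5 replicate 3 for 23 and E9.5 replicate 1 for 23. Of the 23 counts of Col10a1 in all libraries, 11 were in E16.5 replicate 4.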
